A study of Mus musculus with 6 samples.

Results

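The genes described here are 10 transcripts known for holding back the differentiation of precursor cells, namely the 4 Id genes Id1, Id2, Id3 and Id4, the Hes and Hey repressors Hes1, Hes5, Hey1 and Hey2, the receptor Notch1 and its ligand Jag1. They were taken by symbol from the 55298 gene identifiers of the deposited table. Each symbol belonged to 1 identifier, and all 10 passed the filter of a mean value of at least 3, so that they are 10 of 18161 genes tested. The data set is RNA sequencing of uncultured brain cells of mice of the strain labelled c56Bl/6j, captured on magnetic beads through O4, a sulfatide that late precursors and mature cells of the oligodendrocyte lineage carry on their surface. One group was immunised with the MOG 35-55 peptide of a myelin protein, which induces experimental autoimmune encephalomyelitis (EAE), a model of multiple sclerosis, and was taken at the peak of disease. The control group was given ovalbumin (OVA). The EAE group holds 3 pools of RNA from 2 mice each, and the OVA group holds 1 pool of 2 mice (OVA replicate 2) and 2 samples of 1 mouse each (OVA replicates 1 and 3). Since pools blend mice, single mice may differ more than the samples do. Single mice occur only in the OVA group, so pooling and group are partly confounded. The model used below assumes the same spread in both groups. The labels give no transgene, age, sex or batch.

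Notch is a membrane receptor that is cut when a ligand such as Jagged1 on a neighbouring cell binds it. The freed intracellular part joins the DNA-binding protein RBPJ and switches on Hes and Hey genes, whose products repress genes of differentiation. Id proteins lack a DNA-binding domain and hold the E proteins that partner bHLH factors such as Olig2. In the oligodendrocyte lineage Notch signalling, Hes5, Id2 and Id4 are known to delay the step from precursor to myelin-forming cell. Bone morphogenetic proteins (BMPs) induce Id genes. Several of these genes are also active in other brain cells, such as Hes5 in astrocytes and Jag1, Hey1, Hey2, Id1 and Id3 in blood vessels.

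None of the 10 genes passed the test between EAE and OVA. The differences were small and all lay below 0, from -0.0066 for Id2 to -0.44 for Hes5 on the log2 scale, with a median of -0.20 against a median of -0.0024 over all genes tested. The limma linear model, with Benjamini-Hochberg adjustment over all genes tested and a threshold of 0.05, called 0 of 10 higher and 0 of 10 lower, where it called 2.38% of all genes, 1.72% higher and 0.666% lower. At an unadjusted p under 0.05 stood 3 genes, Hes5, Notch1 and Jag1, all lower in EAE, beside 7.15% of all genes lower at that level. A difference below 0 was found in 50.7% of all genes. Values are the authors' regularised logarithms (rlog) of scaled counts, in log2 units, where a difference of 1 is a 2-fold difference and values of weakly expressed genes are shrunk towards the gene's mean. Depth is unknown, since no counts were in the table.

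A few facts of the whole set bear on these values. Genes of mature oligodendrocytes had the highest summed level of the marker lists, at 20.26 to 20.41 in EAE and 19.89 to 20.33 in OVA (log2 of the summed linear values), and they mark the cell type named in the labels. These sums were not corrected for gene length or for the number of genes on a list. Markers of astrocytes, vessels, microglia and other cells were also present in every sample, and no marker on any list was at 0. Xist, which silences an X chromosome in females, stood at 13.50 to 14.16 in the EAE pools and at 7.39 to 7.63 in OVA, and the Y-linked Ddx3y at 9.44 to 10.18 and 11.29 to 11.46. Ddx3y was 1.44 lower in EAE where Xist was 6.19 higher, so the EAE pools may not be of females alone. The effect of EAE cannot be told apart from that of the sex of the mice for any gene below. In bulk RNA, fewer cells of a type and less RNA per cell cannot be told apart either.

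**Figure D1:**
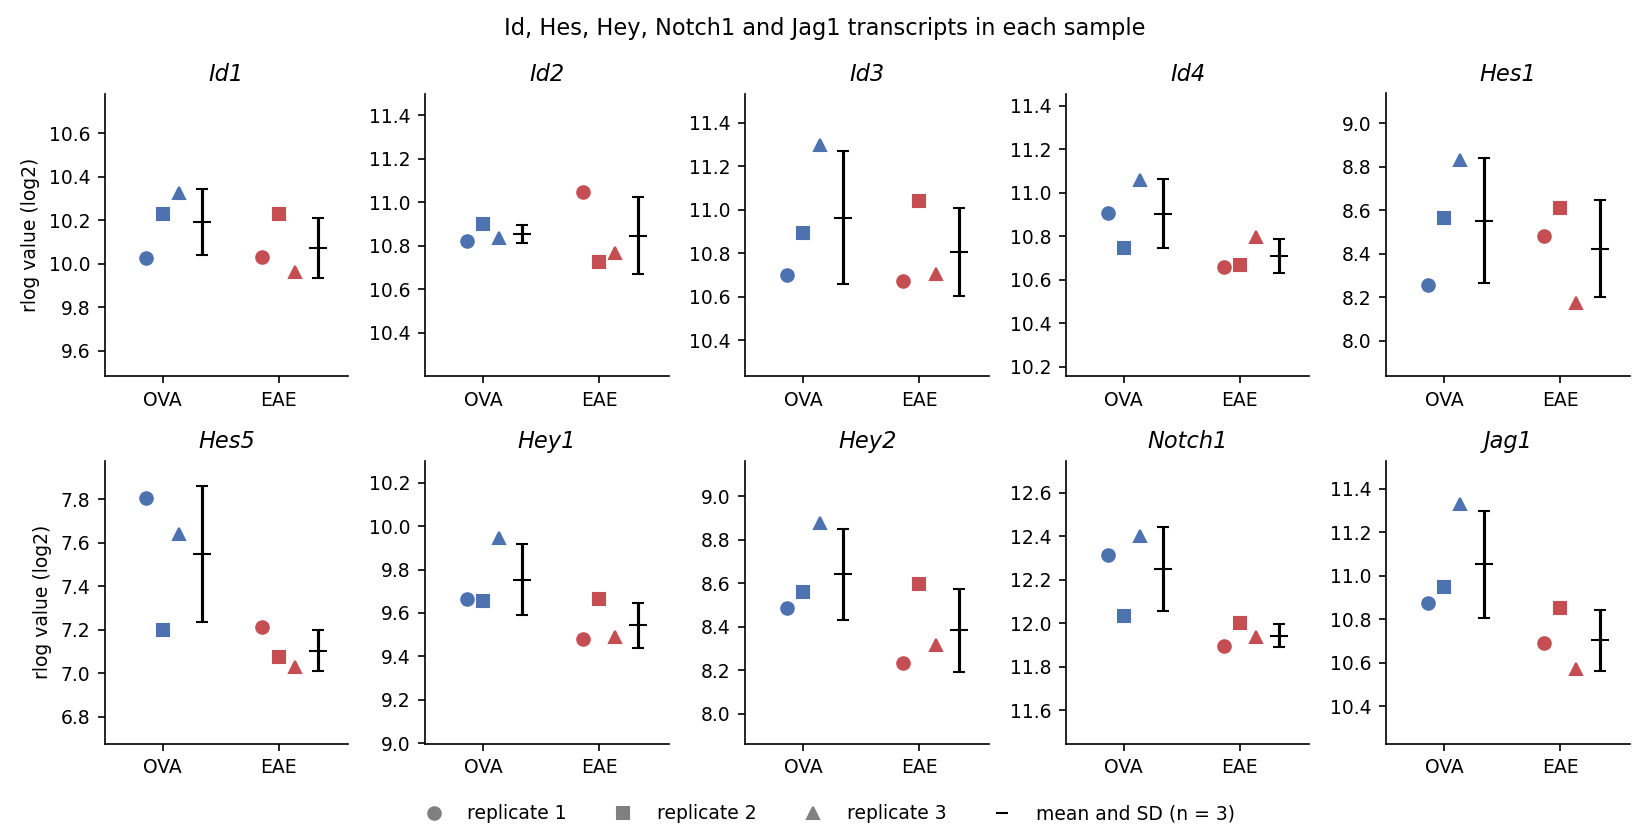
Value of each of the 10 genes in each sample (rlog, log2 units, vertical axis), OVA in blue and EAE in red, with the mean and SD of 3 samples in black; every panel spans the same range of 1.3. The EAE samples of Notch1 and Jag1 all lie below the OVA samples, while the groups overlap for the other 8 genes.

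Promoters of the Notch targets show where RBPJ could bind. Of the 10 genes, 7 had a promoter in the RefSeq table (GRCm38.p6), and Id1, Hes1 and Hey1 had none in it. The core of the RBPJ motif, TGGGAA or its reverse complement TTCCCA, was searched in the 250 bases before the start site on both strands. It was present in 3 of the 7, Hes5, Hey2 and Id4, and in 21.6% of the 32851 promoters in the table. No match was found in the windows of Id2, Id3, Notch1 and Jag1. The windows of Hes5 and Hey2, the Notch target genes among the 3, are printed 5′ to 3′ with the motif in capitals. Hes5 (chr4:154960673-154960922, plus strand) holds it on both strands, starting 226 and 82 bases before the start site. Hey2 (chr10:30842784-30843033, minus strand) holds it once, 207 bases before the start site.
Hes5: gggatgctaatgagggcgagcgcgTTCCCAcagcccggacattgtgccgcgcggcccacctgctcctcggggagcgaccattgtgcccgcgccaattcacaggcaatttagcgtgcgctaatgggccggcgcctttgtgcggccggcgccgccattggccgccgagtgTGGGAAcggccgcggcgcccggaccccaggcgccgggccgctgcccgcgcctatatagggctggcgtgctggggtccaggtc
Hey2: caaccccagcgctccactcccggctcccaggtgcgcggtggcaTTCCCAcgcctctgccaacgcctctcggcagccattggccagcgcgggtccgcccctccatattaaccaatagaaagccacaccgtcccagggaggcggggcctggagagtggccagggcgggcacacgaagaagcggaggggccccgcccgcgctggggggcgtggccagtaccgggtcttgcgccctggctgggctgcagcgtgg
A match of 6 letters is a description and shows no binding. All 10 genes had lower means in EAE, whether or not a match was found, and none passed the test. The differences of Hes5, Hey2 and Id4 were -0.44, -0.26 and -0.20. Those of Jag1, Notch1, Id3 and Id2, without a match, were -0.35, -0.31, -0.16 and -0.0066.

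Among the receptors and ligands, Notch1 (ENSMUSG00000026923.15, GRCm38 chromosome 2, 26457903 to 26516663, minus strand) encodes the receptor best known for holding precursors undifferentiated. It stood at 12.311, 12.034 and 12.401 in OVA replicates 1 to 3 and at 11.894, 11.999 and 11.935 in EAE replicates 1 to 3. The groups did not overlap, with OVA replicate 2 only just above the highest EAE pool. The mean was 12.25 ± 0.19 in OVA and 11.94 ± 0.053 in EAE (SD, n = 3), a difference of -0.31 ± 0.10 (SE; 95% interval -0.55 to -0.064; limma adjusted p = 0.20).

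Jag1 (ENSMUSG00000027276.7, chromosome 2, 137081456 to 137116644, minus strand) encodes Jagged1, a ligand of Notch. Its values were 10.88, 10.95 and 11.33 in OVA and 10.69, 10.85 and 10.57 in EAE. Here too the groups did not overlap, and OVA replicate 3 lay well above the rest. The means were 11.05 ± 0.25 and 10.70 ± 0.14 (SD, n = 3), which differ by -0.35 ± 0.13 (SE; 95% interval -0.66 to -0.038; limma adjusted p = 0.25). Groups that do not overlap with EAE lower were found in 2 of the 10 genes and in 10.8% of all genes tested. With 3 samples a group, the smallest two-sided p of an exact permutation test is 0.1, and the limma p values draw on the spread of all genes.

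Hes5 (ENSMUSG00000048001.7, chromosome 4, 154960923 to 154962371, plus strand), a repressor and Notch target, had the largest difference of the 10. It stood at 7.80, 7.20 and 7.64 in OVA and at 7.21, 7.07 and 7.03 in EAE. OVA replicates 1 and 3 lay above all EAE pools, whereas OVA replicate 2 lay just below EAE replicate 1. The mean of 7.55 ± 0.31 in OVA and 7.10 ± 0.096 in EAE (SD, n = 3) gave a difference of -0.44 ± 0.16 (SE; 95% interval -0.83 to -0.064; limma adjusted p = 0.23), which is 1.36-fold lower in EAE.

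Hes1 (ENSMUSG00000022528.8, chromosome 16, 30064384 to 30067796, plus strand), the broadly expressed repressor of the same family, stood at 8.26, 8.57 and 8.83 in OVA and at 8.48, 8.61 and 8.18 in EAE. The groups overlapped throughout, and the OVA samples alone spanned most of the range. The difference was -0.13 ± 0.17 (SE; limma adjusted p = 0.76). Without OVA replicate 3 it was 0.011, so its direction rests on that sample.

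The Hey repressors act downstream of Notch in vessels and other tissues. Hey1 (ENSMUSG00000040289.8, chromosome 3, 8663359 to 8667256, minus strand) stood at 9.66, 9.66 and 9.94 in OVA and at 9.48, 9.66 and 9.49 in EAE. Hey2 (ENSMUSG00000019789.9, chromosome 10, 30832359 to 30842801, minus strand) stood at 8.48, 8.56 and 8.88 in OVA and at 8.23, 8.60 and 8.32 in EAE. In both genes OVA replicate 3 was the highest sample and EAE replicate 2 reached the level of the other OVA samples. Their differences were -0.21 ± 0.11 and -0.26 ± 0.14 (SE; limma adjusted p = 0.38 and 0.42).

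The Id genes encode inhibitors of bHLH factors. Id4 (ENSMUSG00000021379.2, chromosome 13, 48261228 to 48266026, plus strand) stood at 10.91, 10.75 and 11.06 in OVA and at 10.66, 10.67 and 10.80 in EAE. Only EAE replicate 3 reached above the lowest OVA sample, and the difference was -0.20 ± 0.095 (SE; limma adjusted p = 0.37). Id2 (ENSMUSG00000020644.9, chromosome 12, 25093799 to 25097140, minus strand) stood at 10.82, 10.90 and 10.84 in OVA and at 11.05, 10.72 and 10.77 in EAE. Its means were the closest of the 10, at 10.85 ± 0.043 and 10.85 ± 0.18 (SD, n = 3), and the 95% interval of the difference ran from -0.23 to 0.22 (limma adjusted p = 0.98). The single high EAE pool, replicate 1, lay above every OVA sample and the other EAE pools below every one.

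Id1 (ENSMUSG00000042745.9, chromosome 2, 152736251 to 152737410, plus strand) and Id3 (ENSMUSG00000007872.3, chromosome 4, 136143497 to 136145755, plus strand) are induced by BMP signals in many cells, among them those of vessels. Id1 stood at 10.03, 10.23 and 10.32 in OVA and at 10.03, 10.23 and 9.96 in EAE. Id3 stood at 10.70, 10.89 and 11.30 in OVA and at 10.68, 11.04 and 10.71 in EAE. The samples of the groups interleaved in both genes. The differences were -0.12 ± 0.11 and -0.16 ± 0.17 (SE; limma adjusted p = 0.62 and 0.68), and that of Id3 was 0.011 without OVA replicate 3.

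A p that misses the threshold does not show equal levels. The 95% intervals of all 10 differences lay within 1 log2 unit of 0, from a lowest bound of -0.83 (Hes5) to a highest of 0.27 (Hes1). Those of Hes5, Notch1 and Jag1 lay wholly below 0 before any adjustment.

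**Figure D2:**
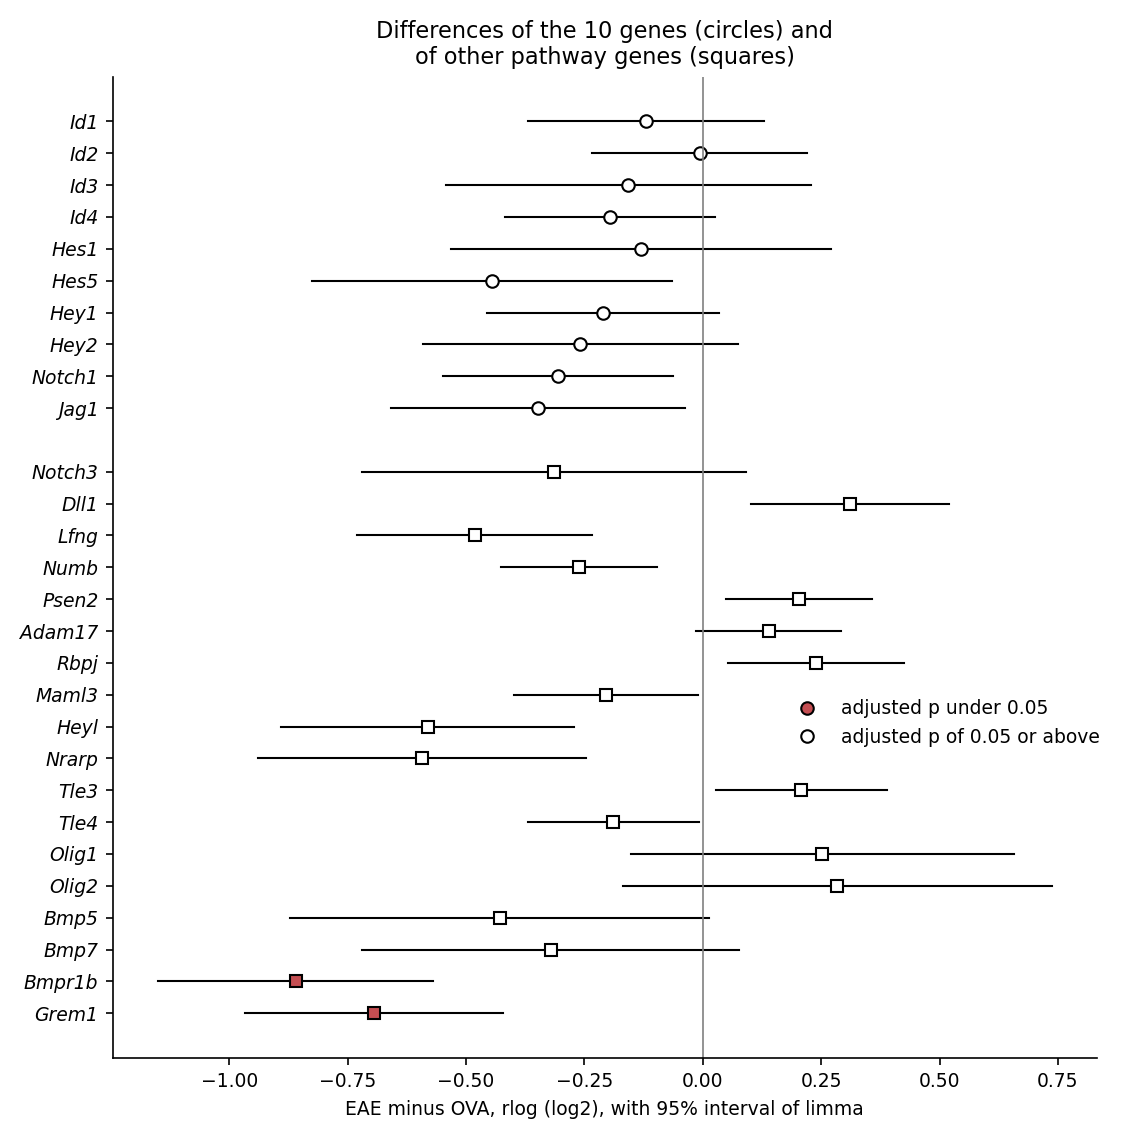
Difference of EAE minus OVA (rlog, log2 units, horizontal axis) with its unadjusted 95% interval for the 10 genes (circles) and for 18 other genes of the pathway (squares); filled symbols have a limma adjusted p under 0.05. All 10 circles are open and lie at or left of 0, and only Bmpr1b and Grem1 are filled.

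Levels of different genes can be compared only per length, as the rlog value minus log2 of the exon length in kb. On this scale Id3 and Id1 were the most abundant of the 10 in OVA, at 10.12 ± 0.31 and 9.98 ± 0.15 (SD, n = 3), and their ranges overlapped. Id2 (9.57 ± 0.043) and Id4 (8.96 ± 0.16) followed, each apart from its neighbours in this order. Jag1 (8.51 ± 0.25) and Notch1 (8.42 ± 0.19) overlapped, as did Notch1 and Hey1 (8.05 ± 0.16). Hes1 (7.53 ± 0.29) and Hes5 (7.10 ± 0.31) also overlapped, and Hey2 (6.44 ± 0.21) was the lowest. The order of the means was the same in EAE, from 9.97 for Id3 to 6.18 for Hey2. There Id1 and Id2 overlapped, whereas Notch1 stood apart from Hey1 and Hes1 from Hes5. Exon length counts all annotated exons, which the transcripts made in these cells may not all hold.

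**Figure D3:**
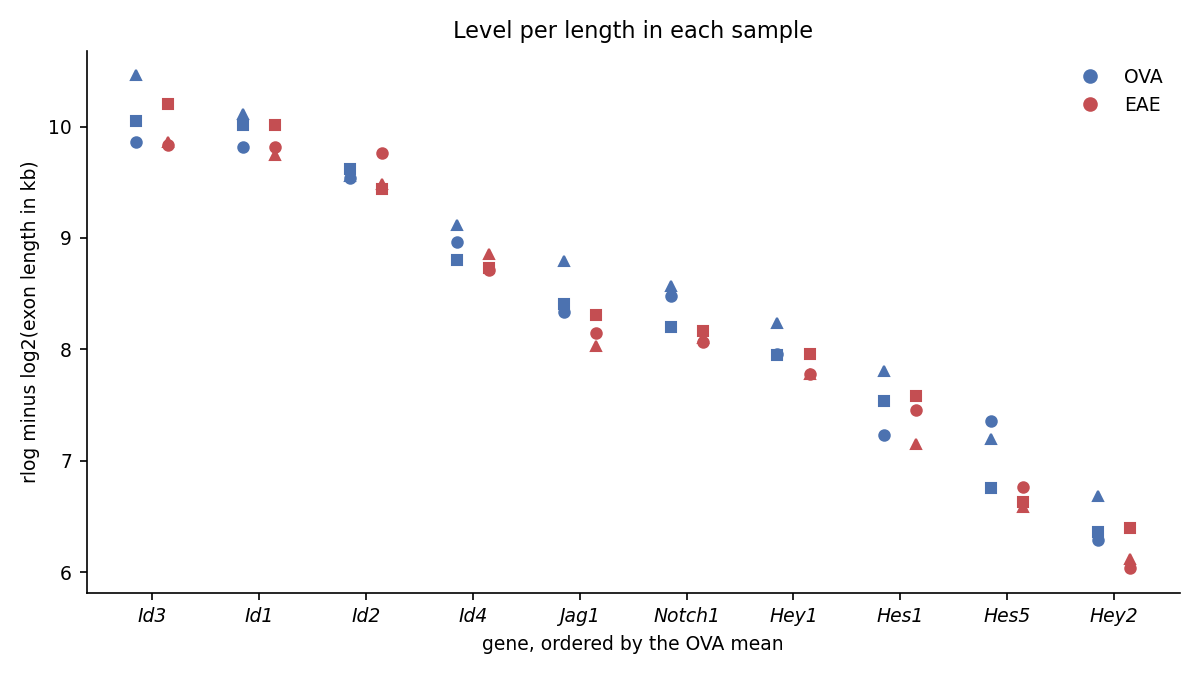
Level per length (rlog minus log2 of exon length in kb, vertical axis) of the 10 genes in each OVA (blue) and EAE (red) sample, with circles, squares and triangles for replicates 1, 2 and 3. The 4 Id genes lie highest and Hey2 lowest in both groups.

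Most of the 10 genes shared their highest sample. OVA replicate 3, from 1 mouse, was the highest of the 6 samples for 8 of them, all but Hes5 and Id2, whereas it was the highest for 25.5% of all genes tested. The deviation of that sample from the mean of all 6 was 0.45 for Jag1, 0.41 for Id3, 0.37 for Hey2 and 0.35 for Hes1. It was 0.31 for Notch1, 0.29 for Hey1, 0.25 for Id4 and 0.19 for Id1. Hes5 was highest in OVA replicate 1 instead, at 0.48 above its mean, and Id2 in EAE replicate 1, at 0.20. In OVA replicate 3 Hes5 lay 0.32 above its mean.

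Marker lists of other brain cells varied in the same samples. All 13 endothelial markers and all 8 markers of pericytes and smooth muscle were highest in OVA replicate 3, where they lay 0.69 and 0.58 above their mean. Their summed level was 16.16 to 16.63 in EAE and 16.50 to 17.23 in OVA for endothelium, and 14.58 to 15.00 and 14.72 to 15.59 for pericytes and smooth muscle. Every marker on both lists lay below 0, with medians of -0.56 and -0.38, and limma called 0 of them, with 8 and 2 at an unadjusted p under 0.05. The genes with the smallest p were Vwf, the clotting factor carrier of endothelium, at -0.56 ± 0.16, and Pdgfrb, the pericyte growth factor receptor, at -0.43 ± 0.12 (SE; limma adjusted p = 0.14 and 0.13).

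Astrocyte markers were highest in OVA replicate 1 for 9 of 12, as Hes5 was, with a mean of 0.47 above that of all samples. Of the 8 homeostatic microglia markers, 7 were also highest there, with a mean of 0.50 above that of all samples. Of all 18161 genes tested, 4859 were highest in that sample. The summed level of the astrocyte markers was 16.37 to 16.69 in EAE and 17.12 to 17.47 in OVA. Of the 12, limma called 6 lower and 1 higher, beside 0.666% and 1.72% of all genes. Gja1, a gap junction protein, fell by 0.91, and Gfap, the filament of reactive astrocytes, rose by 1.35 (limma adjusted p = 0.0073 and 0.0045). The part of vessel, astrocyte and microglia RNA in the differences of the 10 genes was not tested.

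Of the 12 markers of mature oligodendrocytes, limma called 0, with 1 (Cldn11, at 0.42) at an unadjusted p under 0.05. Of the 8 precursor markers it called 0, with 4 at that level, of which Lhfpl3 (0.50) had the smallest p. In OVA replicate 3 these lists deviated from their mean by -0.38 and -0.43, and there 11 of the 12 and 7 of the 8 had their lowest value. How many of all genes had their lowest value there was not counted. The precursor list had a summed level of 14.03 to 14.25 in EAE and 13.57 to 13.99 in OVA. Of the 8 homeostatic microglia markers limma called 2 lower, with Fcrls at -0.89, and all 8 lay below 0. It called 5 of 8 myeloid markers higher, with the protease Ctss at 1.49, and all 8 lay above 0. Of 7 monocyte and macrophage markers it called 2 higher, with Gpnmb at 4.40, and of 8 T cell markers 5, with Cd3e at 0.84. All markers of these last lists lay above 0. Over all genes tested it called 0.666% lower and 1.72% higher. Limma called 0 of 7 neuronal and 0 of 5 ependymal markers, with 0 and 3 at an unadjusted p under 0.05. The genes with the smallest p were Stmn2 (-0.39) and Foxj1 (0.57).

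**Figure D4:**
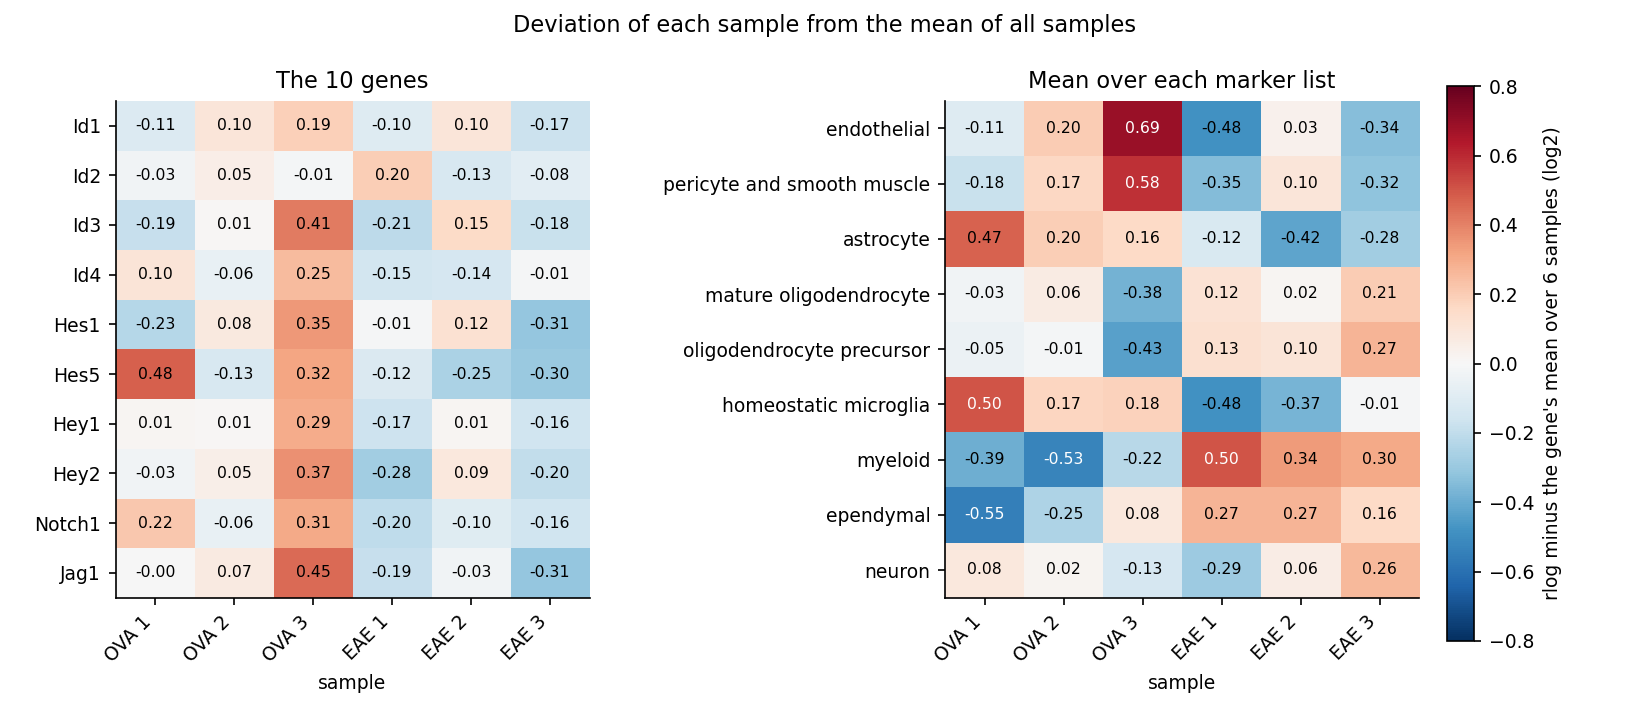
Deviation of each sample from the mean of all 6 (rlog, log2 units, colour and printed number) for the 10 genes on the left and for the means over marker lists on the right. The lists of monocytes and macrophages and of T cells are not drawn. OVA 3 has the highest value in 8 of 10 rows on the left and in the vascular rows on the right. OVA 1 has it for Hes5 and for the astrocyte and homeostatic microglia rows.

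For the 3 genes with the smallest p, the genes with the most similar profile over the 6 samples were found by the root mean square (RMS) difference of values centred on each gene's mean. Nearest to Notch1 were Mylk4, Zbtb7c and Zxdb, with an RMS difference of 0.030, 0.031 and 0.038. Nearest to Jag1 were Arhgap42, Lrrc32 and Lrp5, at 0.022, 0.038 and 0.038. The profile of Hes5 was less closely matched, with Pou3f4, Proca1 and Kcnn3 at 0.065, 0.072 and 0.085. None of these genes passed the test, and their limma adjusted p ran from 0.11 to 0.31. All were drawn from the same 6 samples, so the likeness is a description.

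The wider pathway was followed in 80 other genes of 12 lists, of which 77 passed the filter. Of these limma called 2 lower and 0 higher, with 14 lower and 5 higher at an unadjusted p under 0.05. The share of 2 in 77 stands beside the 0.666% of all genes called lower. At an unadjusted p under 0.05 stood 7.15% of all genes lower and 9.17% higher, or 16.3% in either direction. Both that fell belong to BMP signalling. Bmpr1b (ENSMUSG00000052430.15, chromosome 3, 141837136 to 142169425, minus strand), a type I BMP receptor, stood at 9.67, 9.50 and 9.33 in OVA and at 8.76, 8.45 and 8.72 in EAE. Every EAE pool lay more than 0.5 below the lowest OVA sample. It fell by 0.86 ± 0.12 (SE), which is 1.81-fold (limma adjusted p = 0.020). Like 9 of the 12 astrocyte markers and 7 of the 8 homeostatic microglia markers, Bmpr1b was highest in OVA replicate 1. So were 4859 of all 18161 genes tested. Of the astrocyte markers limma called 6 lower, among them Gja1 (-0.91), and 1 higher, Gfap (1.35). Of the homeostatic microglia markers it called 2 lower, among them Fcrls (-0.89). The part of astrocyte and microglia RNA in the difference of Bmpr1b was not tested.

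Grem1 (ENSMUSG00000074934.3, chromosome 2, 113746164 to 113758646, minus strand) encodes Gremlin 1, a secreted protein that binds and blocks BMPs. It stood at 7.00, 7.08 and 7.19 in OVA and at 6.43, 6.54 and 6.22 in EAE, so that the groups did not overlap. It fell by 0.69 ± 0.12 (SE), which is 1.62-fold (limma adjusted p = 0.030). Bmpr1b missed the threshold when replicate 1 or 2 of either group was left out (limma adjusted p of 0.056 to 0.095). Grem1 did so without any single sample other than OVA replicate 3 (0.067 to 0.117).

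Of the remaining BMP genes none passed. With Bmpr1b included, all 10 BMP receptors and Smads lay below 0, with a median of -0.30. Of the 10, 3 had an unadjusted p under 0.05, Bmpr1b among them. The 5 BMP ligands had a median of -0.096, and Bmp5 and Bmp7 had the smallest p, at -0.43 ± 0.19 and -0.32 ± 0.17 (SE; limma adjusted p = 0.32 and 0.40). Of the 6 BMP inhibitors tested, 4 lay below 0, Grem1 among them.

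In the list of Hes and Hey genes and Nrarp, the genes with the smallest p were not among the 10. Heyl, a Hey relative of vessel walls, stood at 9.31, 9.41 and 9.81 in OVA and at 8.92, 8.89 and 8.98 in EAE. Nrarp, a Notch target that feeds back on the pathway, stood at 9.61, 9.17 and 9.69 in OVA and at 9.04, 8.79 and 8.85 in EAE. The groups did not overlap in either gene. Their differences of -0.58 ± 0.13 and -0.59 ± 0.15 (SE) had limma adjusted p of 0.074 and 0.097. That of Heyl was 0.027 without OVA replicate 3, where the difference was -0.43. Of the 8 genes tested in this list limma called 0, with 3 at an unadjusted p under 0.05 and a median of -0.23. Hes2 was at 0 in all samples, and Hes7 was under the filter.

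All 4 Notch receptors lay below 0, with a median of -0.28 and 0 called, 1 of them (Notch1) at an unadjusted p under 0.05. Notch3, the receptor of mural cells, had the largest difference, at -0.31 ± 0.17 (SE; limma adjusted p = 0.42). The 5 ligands differed in sign and limma called 0, with 3 at an unadjusted p under 0.05. Dll1 stood at 8.54, 8.40 and 8.49 in OVA and at 8.74, 8.74 and 8.88 in EAE, opposite to Jag1, with a difference of 0.31 ± 0.090 (SE; limma adjusted p = 0.14).

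Lfng, a glycosyltransferase that changes which ligands Notch answers to, stood at 10.86, 10.76 and 10.79 in OVA and at 10.55, 10.16 and 10.27 in EAE. All EAE pools lay below all OVA samples, and the difference was -0.48 ± 0.11 (SE; limma adjusted p = 0.070). Numb, an inhibitor of Notch, differed by -0.26 ± 0.070 (limma adjusted p = 0.12). Of the 15 modifiers and regulators limma called 0, with 5 at an unadjusted p under 0.05 and a median of -0.069.

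Genes of the core machinery had medians near 0. Of 9 genes of Notch cleavage limma called 0, with 1 at an unadjusted p under 0.05 and a median of 0.058. The presenilin Psen2 and the sheddase Adam17 differed by 0.20 ± 0.066 and 0.14 ± 0.066 (SE; limma adjusted p = 0.18 and 0.35). Of 10 genes of the transcription complex limma called 0, with 2 at that level and a median of -0.028. Rbpj, the DNA-binding partner of Notch, differed by 0.24 ± 0.080 and the coactivator Maml3 by -0.20 ± 0.083 (limma adjusted p = 0.19 and 0.28). Limma also called 0 of the 5 Groucho corepressors, which bind Hes proteins, with 2 at that level, Tle3 at 0.21 and Tle4 at -0.19. Of the 6 bHLH partners of Id proteins it called 0, with 0 at that level, and Olig2 and Olig1, factors of the oligodendrocyte lineage, differed by 0.28 ± 0.19 and 0.25 ± 0.17 (limma adjusted p = 0.51 for each).

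**Figure D5:**
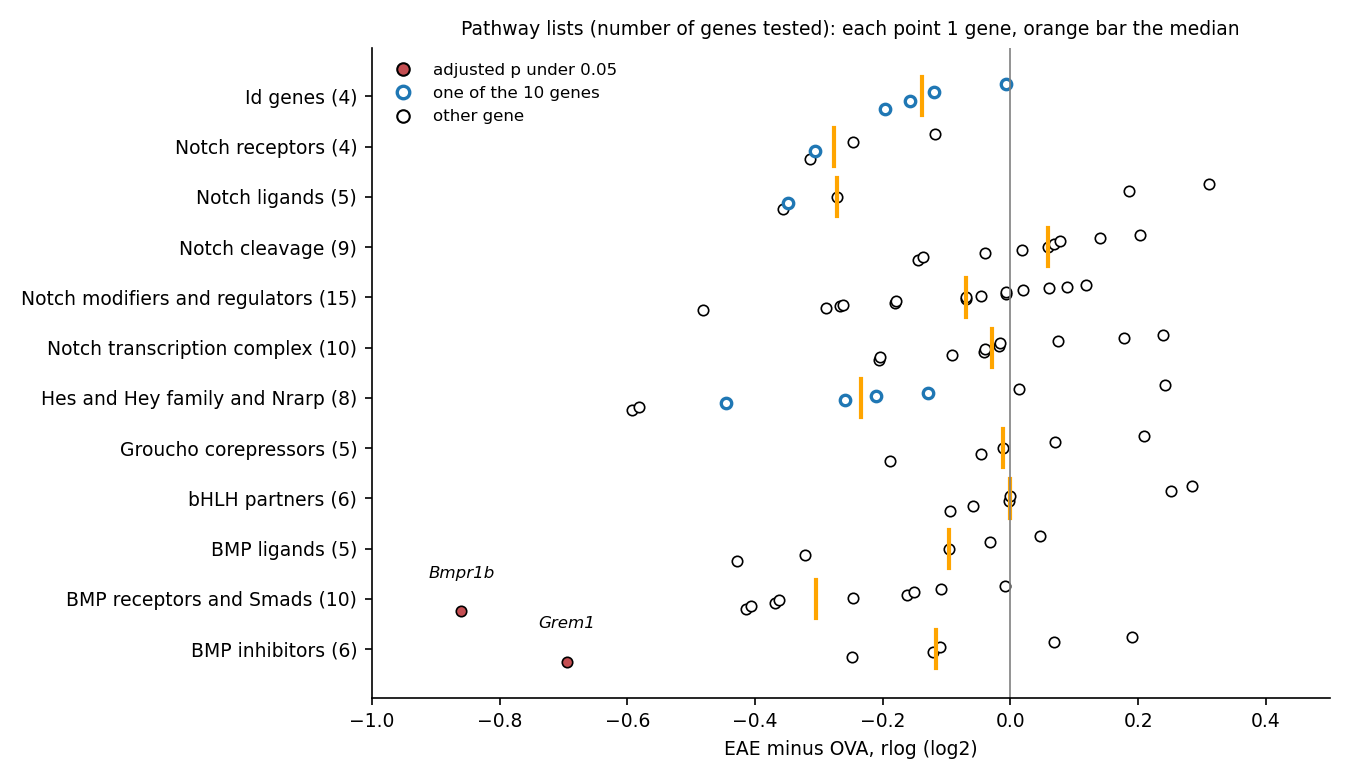
Difference of EAE minus OVA (rlog, log2 units, horizontal axis) of each gene tested in the 12 pathway lists, with blue rims for the 10 genes, filled symbols for a limma adjusted p under 0.05 and an orange bar at the median of each list. Bmpr1b at -0.86 and Grem1 at -0.69 are the filled points, and the Notch cleavage list is the one with its median above 0.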

How the data were processed

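Per the labels' protocols, the library kit was TruSeq Stranded mRNA, which selects polyadenylated RNA. GRCm38 is the build and DESeq2 1.24.0, Subread 1.6.1, STAR 2.6.1c and cutadapt 1.18 are among the tools in the submitters' processing notes, with no role or order. The deposited table holds log2 values per gene and sample, which its name and values mark as the authors' rlog of scaled counts. Its options and the gene annotation are not given in the sources used here. The rlog shrinks low values, which understates their differences, and no depth can be given.

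Of 55298 identifiers 55117 matched a symbol, and 54550 matched GENCODE M21 (GRCm38) with the same version, which gave positions and exon lengths. Genes with a mean value under 3 were left out. EAE and OVA, grouped by the treatment label, were compared with limma 3.58.1 in R 4.3.3 (empirical Bayes with an intensity trend, two-sided, Benjamini-Hochberg over 18161 genes). The p values measure the spread between samples, some of which are pools. Replicate numbers follow the order of deposition and pair nothing. The fit was tested on simulated data beforehand. It recovered 28% of 50 genes changed by 0.5 log2 units and 84% of 50 changed by 1, with 4 false calls. Most changes of 0.5 were thus missed.

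The members and gene lists were chosen with earlier results of these data known. Named are the 10 members, of each pathway list the genes past the threshold (at most 4) or the 2 with the smallest p, of each marker list the gene with the smallest p in each direction past the threshold or the 1 with the smallest p, and the 3 genes most similar to each of 3 members. Alternatives were another filter, no trend, sample weights, other scalings and each sample left out.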

Additional observations from a re-analysis of the deposited data

How the results depend on the processing

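Of 130 combinations of the 10 genes with 13 alternatives (other filters, no trend, weights by mice or by array quality, median centring, quantile normalization and each sample left out), 124 kept direction and side of the threshold. Jag1 passed with array quality weights (-0.23, limma adjusted p = 0.044), where 1 member was called lower. That fit gave OVA replicate 2 a weight of 8.85 and did not reach its convergence tolerance, and it called 2858 genes higher and 2233 lower, with 6 and 21 of the other pathway genes. Id2, whose difference was near 0, changed sign when EAE replicate 2 (0.055), EAE replicate 3 (0.032) or, of the controls, OVA replicate 2 (0.018) was left out (range over samples left out -0.11 to 0.055). Id3 and Hes1 did so without OVA replicate 3, at 0.011 each, with ranges of -0.29 to 0.011 and -0.28 to 0.011. With each sample left out, 0 members were called, while genes called higher ranged from 24 (without EAE replicate 2) to 850 (without OVA replicate 3) and lower from 1 to 346 without the same samples. Other pathway genes called ranged from 0 to 1 higher and from 0 to 3 lower, with both highest counts without OVA replicate 3. Heyl also passed with weights by mice (0.040) and median centring (0.044), and Rbpj without OVA replicate 3 (0.047). The scalings moved the median of all genes by at most 0.0231.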

Other observations

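Dll1 and Jag1, ligands that bind the same receptors, had differences of opposite sign, and their values were compared within each sample after those differences had been seen. Dll1 minus Jag1 was -2.33, -2.56 and -2.84 in OVA replicates 1 to 3 and -1.95, -2.11 and -1.69 in EAE replicates 1 to 3. The groups did not overlap, and the mean was higher by 0.66 in EAE (-1.92 ± 0.21 against -2.58 ± 0.25, SD, n = 3). The two-sided exact permutation p was 0.1, the smallest that 3 samples against 3 allow. Each of these genes alone already separated the groups, in opposite directions. Their difference therefore had to separate them with this p, and it is a description only. Dll1 minus Dll4, the endothelial Delta ligand, was likewise higher in all 3 EAE pools, by 0.58 (exact permutation p = 0.1; 0.1 for each after Benjamini-Hochberg adjustment over the 2 contrasts). Both contrasts share Dll1. Endothelial markers were highest in OVA replicate 3, the sample with the lowest value of both contrasts, and their part in them was not tested.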
